A study of Mus musculus with 11 samples.

Results

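Btnl4, Btnl5-ps, Cacng5, Chchd10 and C77080 are 5 mouse genes that were picked because their RNA had been seen to be far more abundant in inguinal white adipose tissue after rosiglitazone treatment. They are 5 of the 52282 genes to which the deposited transcripts could be assigned, and all 5 were among the 26960 genes with enough reads to be tested. The values that chose them are the drug responses in mice with intact Raptor and in mice lacking it in adipocytes. Those responses are therefore given as a description, without a test. The shared name of rosiglitazone switch genes held for 3 of the 5 genes in both genotypes. Chchd10 was not higher with the drug in the mice lacking Raptor, and C77080 was not higher with the drug in the mice with intact Raptor.

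Rosiglitazone is a thiazolidinedione, a synthetic ligand that activates the nuclear receptor PPAR gamma. PPAR gamma binds DNA together with a retinoid X receptor and is the main transcription factor of fat cell formation and lipid storage. Raptor, encoded by Rptor, is the defining subunit of mTOR complex 1, the kinase complex that couples nutrients and insulin to growth and lipid synthesis. Inguinal fat is a subcutaneous depot in which adipocytes with many mitochondria can appear among white adipocytes.

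The 11 RNA-seq libraries came from inguinal white adipose tissue of C57BL6/J mice aged 16 weeks, all fed a high-fat diet for 8 weeks from 8 weeks of age. The group called WT carried floxed Raptor alleles, and the group called KO carried the floxed alleles with a Cre recombinase driven by adiponectin. The Cre acts in adipocytes, so the other cells of the tissue keep Raptor. WT diet (3 libraries) and KO diet (2 libraries) had the diet alone, and WT rosi (3 libraries) and KO rosi (3 libraries) had the diet with rosiglitazone at 30 mg per kg per day. Groups follow the treatment recorded in each sample's characteristics. The titles of the 6 WT libraries contradict those characteristics, each naming the other treatment. If the titles were right, the WT drug differences below would change sign. The labels do not say that the libraries came from separate animals, so p-values measure the spread between these libraries, which may be technical.

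The libraries held from 13035346 to 40925952 estimated reads. On the diet alone Rptor stood at 92, 80.1 and 73.9 CPM (reads per 1000000 reads of the library) in WT and at 56.5 and 69.6 CPM in KO. With the drug it stood at 119, 126 and 110 CPM in WT and at 88.3, 82.4 and 91.7 CPM in KO. Within each treatment every KO library was below every WT library, the direction the genotype labels give. The sum over the gene includes exons outside the floxed part and RNA of cells without Cre. The defining adipocyte transcript Adipoq was present in every library, at 453 to 1864 CPM in WT and 57.7 to 205 CPM in KO. The summed level of 20 mature adipocyte markers was 18083 to 52674 CPM in WT diet, 50230 to 57331 in WT rosi, 4371 to 14124 in KO diet and 8211 to 9951 in KO rosi. No marker in that list was at 0 in a library. In bulk tissue, fewer cells of a type and less RNA per cell cannot be told apart. The KO rosi replicate 2 library also held 43300 CPM of 22 skeletal muscle markers, against 193 and 249 in the other KO rosi libraries. The muscle sum was uneven in WT too, at 728, 16660 and 1130 CPM in WT diet and 273, 11053 and 20538 in WT rosi. In KO diet it was 390 and 211 CPM.

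Differences between groups are log2 fold changes with standard errors (SE) from edgeR's quasi-likelihood fit over all 11 libraries. A gene is called when its Benjamini-Hochberg adjusted p over the 26960 tested genes is below 0.05. By this rule 2.14% of the tested genes were called for the drug in WT, and 0.0148% for the drug in KO. Between KO and WT, 0.137% were called on the diet alone and 15.0% with both on rosiglitazone. For the difference between the 2 drug responses, 0.104% were called. In the same order of comparisons, 4699, 2254, 2829, 8444 and 2840 of the 26960 genes had an unadjusted edgeR p below 0.05. DESeq2, used as an alternative, called 1879, 338, 713, 5706 and 482 genes. The median log2 fold change over all tested genes lay between -0.05 and 0.05 in each comparison.

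Btnl4 belongs to the butyrophilin-like genes, which encode immunoglobulin-superfamily membrane proteins studied mainly as regulators of T cells, and Btnl5-ps is annotated as a transcribed pseudogene of the same cluster. Both lie on the minus strand of chromosome 17 in the GRCm38 build, Btnl4 at chr17:34466562-34477318 and Btnl5-ps at chr17:34488070-34497429. Btnl6, a protein-coding relative, is the next gene of the family beyond Btnl5-ps. The 250 bases before an annotated start of Btnl4 and of Btnl6 are shown. Both genes had few reads without the drug, and these upstream sequences are close copies. The Btnl4 window precedes Btnl4-201, which begins at base 34475937 and is the only Btnl4 transcript among those deposited. It lies inside the annotated span of Btnl4, for which Btnl4-202 is also annotated, so it may not be the promoter used. Which start is used was not tested. Both are from the RefSeq promoter table (GRCm38.p6), minus strand, written 5′ to 3′ with the base before the start last. Capitals mark bases that differ between the pair in a global alignment.
Btnl4, chr17:34475938-34476187: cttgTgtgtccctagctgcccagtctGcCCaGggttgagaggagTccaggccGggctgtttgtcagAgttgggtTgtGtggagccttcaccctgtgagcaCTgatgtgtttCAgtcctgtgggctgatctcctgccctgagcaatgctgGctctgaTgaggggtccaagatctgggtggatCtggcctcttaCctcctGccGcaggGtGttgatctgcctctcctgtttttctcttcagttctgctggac
Btnl6, chr17:34517353-34517602: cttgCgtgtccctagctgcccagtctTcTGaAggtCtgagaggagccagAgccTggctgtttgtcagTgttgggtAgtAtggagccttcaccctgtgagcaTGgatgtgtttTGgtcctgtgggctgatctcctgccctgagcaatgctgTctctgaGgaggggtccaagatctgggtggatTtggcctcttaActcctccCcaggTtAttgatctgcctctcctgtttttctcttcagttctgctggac

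The alignment of these windows had 252 columns, of which 228 (90.5%) were identical, 20 were mismatched and 4 were gapped. The windows were searched on both strands for AGGTCA, the half-site of nuclear receptors, and for 2 copies of it in direct repeat 1 base apart with up to 3 mismatches, the arrangement bound by PPAR gamma with its partner. Btnl4 held such a repeat on the opposite strand with 2 mismatches, starting 68 bases before the start, and Btnl6 held one with 3 mismatches at 67 bases. Repeats with up to 2 mismatches occurred in 3.23% of 32807 promoter windows of the same length, and those with up to 3 in 21.3%. An exact AGGTCA was not found in either window, and 14% of all windows held one. Btnl5-ps had no entry in the promoter table.

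Btnl4 was close to absent without the drug and plainly measured with it, in both genotypes. In WT diet the 3 libraries had 0.651, 0.246 and 0.417 CPM, from 15, 5 and 8 estimated reads. In WT rosi they had 21.7, 17.5 and 13.6 CPM, from 612, 564 and 214 reads. In KO diet the values were 0 and 0.16 CPM, and in KO rosi they were 8.91, 8.13 and 8.96 CPM. Every treated library lay above every untreated one, and the KO rosi libraries lay below the WT rosi ones.

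The drug difference for Btnl4 was 5.30 ± 0.47 (log2, SE) in WT and 6.55 ± 0.66 in KO. Because KO diet rests on 4 reads in all, the KO ratio of reads is better given with its counting interval, 98.7 times (95% exact interval 38.2 to 364), against 40.9 times (28.1 to 61.7) in WT. These intervals cover counting error only. Between genotypes Btnl4 differed by -1.02 ± 0.37 with both on the drug (edgeR adjusted p = 0.0934) and by -2.28 ± 0.71 on the diet alone (adjusted p = 0.284). The difference between the responses was 1.25 ± 0.80 (edgeR adjusted p = 0.619), so a difference in response was not detectable for Btnl4.

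Btnl5-ps followed the same order of groups at a lower read level. It had 0.781, 0.147 and 0.156 CPM in WT diet and 13, 11.8 and 8.18 CPM in WT rosi. It had 0 and 0.0799 CPM in KO diet and 4.43, 5.72 and 4.11 CPM in KO rosi. Treated and untreated libraries did not overlap in either genotype, and all KO rosi libraries were below all WT rosi libraries. The drug difference was 4.87 ± 0.59 (log2, SE) in WT and 6.58 ± 0.89 in KO, the second resting on 2 reads in KO diet. As reads, the KO ratio was 106 times with a 95% counting interval of 29.1 to 884. Btnl5-ps differed between KO rosi and WT rosi by -1.21 ± 0.48 (edgeR adjusted p = 0.117), and its responses differed by 1.72 ± 1.12 (adjusted p = 0.626).

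Reads can be divided between these relatives. Of the distinct 31-base words in the annotated Btnl4 transcripts, 16.5% also occurred in Btnl5-ps, 11.1% in Btnl7-ps and 6.43% in Btnl6, and 28% occurred in some other gene. For Btnl5-ps, 18.3% of the words were shared with Btnl4. The estimated reads of each gene are therefore uncertain where the copies coincide. The short Btnl5-ps-202, with 87.7% of its words in no other transcript of the gene, carried 347 of the gene's WT rosi reads and 102 of its KO rosi reads. The full-length Btnl5-ps-201 carried 462 and 105.

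**Figure D1:**
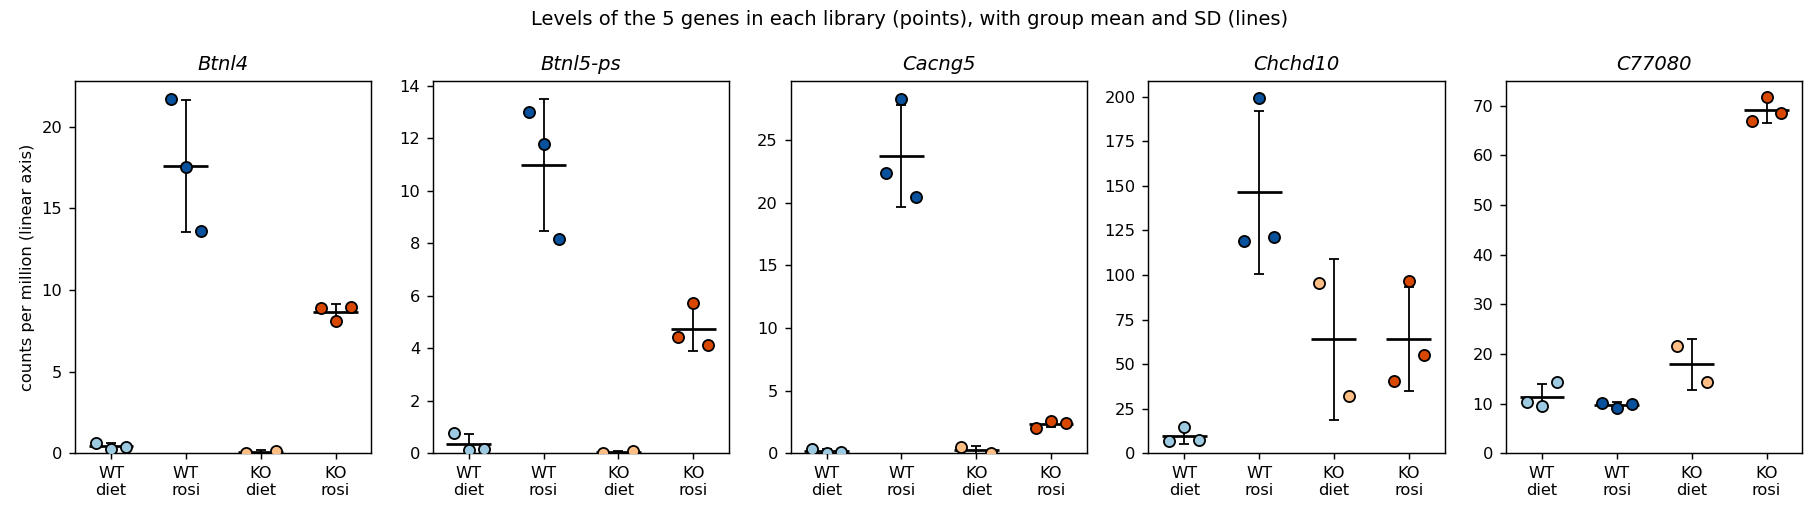
CPM (linear axes from 0, a scale for each gene) of the 5 genes in the 11 libraries, grouped by genotype and treatment, with points for libraries, horizontal lines for group means and bars for the SD. Btnl4, Btnl5-ps and Cacng5 are near 0 in all 5 diet libraries, Chchd10 is already at 32.1 and 95.6 in KO diet, and C77080 is high in KO rosi alone, at 66.9 to 71.8.

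Cacng5 encodes a transmembrane protein of the calcium channel gamma subunit family, known in the brain as an auxiliary subunit of AMPA-type glutamate receptors. The gene lies on the minus strand at chr11:107874605-107915055, with 2 annotated starts that use separate first exons. Upstream sequences of both starts are shown, since the reads divided between them by group. They are the 250 bases before each start from the RefSeq promoter table (GRCm38.p6), minus strand, 5′ to 3′. Capitals mark exact matches, on either strand, to CCAAT and GGGCGG, the motifs found among those searched.
Cacng5-201, chr11:107915056-107915305: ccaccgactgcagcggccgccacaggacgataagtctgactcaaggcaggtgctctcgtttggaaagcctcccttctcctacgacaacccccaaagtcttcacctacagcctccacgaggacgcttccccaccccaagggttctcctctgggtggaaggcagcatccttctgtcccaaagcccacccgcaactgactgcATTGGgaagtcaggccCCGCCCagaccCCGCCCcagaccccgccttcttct
Cacng5-202, chr11:107911363-107911612: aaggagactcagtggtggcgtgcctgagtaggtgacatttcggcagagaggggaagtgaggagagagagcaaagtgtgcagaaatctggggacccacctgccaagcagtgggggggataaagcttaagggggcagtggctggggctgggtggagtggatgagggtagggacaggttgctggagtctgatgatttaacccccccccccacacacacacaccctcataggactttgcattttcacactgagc

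The window of Cacng5-201 held 1 CCAAT box, 51 bases before the start, and 2 copies of GGGCGG at 35 and 24 bases, all on the opposite strand. Over all windows, 33.8% held CCAAT and 32.7% held GGGCGG. The window of Cacng5-202 held no match to any motif searched. Besides those named, the search covered TATAAA, found in 12.4% of all windows, and the letters TTGCNNCAA, found in 1.74%. The base composition was 62% G or C for the first and 56.8% for the second, against a median of 52.4% over all windows.

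In WT diet Cacng5 had 0.390, 0 and 0.104 CPM, from 11 reads in all. In WT rosi it had 22.4, 28.3 and 20.5 CPM, from 631, 909 and 324 reads. In KO diet it had 0.492 and 0 CPM, and in KO rosi 2.06, 2.56 and 2.43 CPM. The treated libraries stood above the untreated ones in both genotypes, but the KO rosi libraries lay far below the WT rosi ones, at 2.35 ± 0.261 against 23.7 ± 4.03 CPM (SD, n = 3 each).

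The drug difference of Cacng5 was 7.06 ± 0.88 (log2, SE) in WT and 3.31 ± 0.96 in KO. With both genotypes on the drug, Cacng5 was lower in KO by -3.34 ± 0.69 (edgeR adjusted p = 0.0132), and no KO rosi library overlapped a WT rosi one. Because the WT rosi libraries are those in which Cacng5 was seen to be high, this comparison is not wholly independent of how the gene was chosen, which holds also for C77080 and the KO rosi libraries. The call was lost without KO rosi replicate 1 (adjusted p = 0.0635) and without KO rosi replicate 3 (adjusted p = 0.0612). With the summed mature adipocyte markers as a covariate the difference was 2.27 (adjusted p = 0.28), the opposite sign. That sum did not overlap between KO rosi and WT rosi, so the fit cannot separate it well from genotype. On the diet alone the genotypes overlapped, with a difference of 0.41 ± 1.14 (edgeR adjusted p = 0.953). The difference between the responses, -3.75 ± 1.36, was not called (edgeR adjusted p = 0.385).

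How the reads of Cacng5 divided between its starts was not used to choose the gene, while the sum over both was. Cacng5-201, from the upstream start, had 0 reads in all 5 diet libraries, 580, 660 and 246 in the WT rosi libraries and 33, 34 and 39 in the KO rosi libraries. Against a floor of 3 reads summed over the diet group, this was at least 408 times higher in WT and at least 35.3 times higher in KO, which largely restates the drug response that chose the gene. Cacng5-202, from the downstream start, had 9, 0 and 2 reads in WT diet and 50.7, 249 and 78.1 in WT rosi. In KO diet its 10 reads were all in replicate 1, and in KO rosi it had 0 reads in each library. The upstream transcript thus carried 72.4% to 91.9% of the gene's TPM (a length-corrected share of the library) in WT rosi and all of it in KO rosi. The 2 transcripts differ in few bases, with 4.16% and 3.45% of their 31-base words being their own, so this division rests on a small part of each transcript and was not tested. No word of Cacng5 occurred in another gene.

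Chchd10 encodes a small twin CX9C protein of the mitochondrial intermembrane space, linked to the organisation of cristae, and mutations of its human counterpart are known in motor neuron and muscle disease. It lies on the plus strand at chr10:75933130-75937747. Its levels were 7.07, 14.8 and 7.67 CPM in WT diet and 119, 199 and 121 CPM in WT rosi. In KO diet they were 95.6 and 32.1 CPM, and in KO rosi 40.8, 96.8 and 55.0 CPM. The WT groups stood apart by a wide gap, while the KO groups overlapped fully and both lay between the WT groups.

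The drug difference of Chchd10 was 3.89 ± 0.53 (log2, SE) in WT and 0.01 ± 0.52 in KO. On the diet alone Chchd10 was higher in both KO libraries than in every WT library, a difference of 2.70 ± 0.53 that was not called by edgeR (adjusted p = 0.102). It was 1.70 without KO diet replicate 1 and 3.28 without KO diet replicate 2 (adjusted p = 0.0242), and DESeq2 called it at 2.70. Leaving out either library leaves 1 in KO diet, which is assumed to vary like the other groups. With both on the drug the KO libraries were lower by -1.19 ± 0.47 (edgeR adjusted p = 0.117). The difference between responses was -3.88 ± 0.71 (edgeR adjusted p = 0.0947). It was -2.89 without KO diet replicate 1 and -4.47 without KO diet replicate 2 (adjusted p = 0.0259), again with 1 KO diet library and the spread of the other groups. The 2 KO diet libraries stood at 95.6 and 32.1 CPM.

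Nearly all Chchd10 reads were assigned to 2 transcripts that begin downstream of the annotated RefSeq start. Chchd10-201, from base 75935573, carried 9208 reads in WT rosi and 493 in WT diet. Chchd10-202, annotated as a retained intron, carried 2405 and 113. Chchd10-203, which begins at the RefSeq start at base 75933130, carried 34 and 6, at most 1.0% of the gene's TPM in a library. The promoter window in the table belongs to that start, so its sequence is not shown. In that window 1 exact AGGTCA was found on the opposite strand, 112 bases before the start. Of the 31-base words of Chchd10, 8.24% also occurred in Mmp11, which overlaps it, and the labels name no strand for these libraries. Mmp11 itself differed by 0.44 ± 0.34 for the drug in WT (edgeR adjusted p = 0.552).

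Levels of Chchd10 moved with markers of thermogenic adipocytes across libraries. The summed level of 16 brown and beige adipocyte markers was 218, 196 and 101 CPM in WT diet, 671, 994 and 540 in WT rosi, 838 and 215 in KO diet, and 328, 687 and 302 in KO rosi. None of the 16 was at 0 in all libraries, and 2 were at 0 in at least 1. Ucp1, the uncoupling protein that defines these cells, was at 0, 18.1 and 0 CPM in WT diet, 45.1, 115 and 23.7 in WT rosi, 125 and 14.7 in KO diet, and 30.5, 139 and 24.3 in KO rosi. The library with the most Chchd10 in each group was the one with the most Ucp1 in all 4 groups, and in every group but WT rosi also the one with the most skeletal muscle markers. The part of these cells in the result was not tested. With the skeletal muscle markers as a covariate, the Chchd10 difference was 3.87 for the drug in WT and -0.34 in KO.

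**Figure D2:**
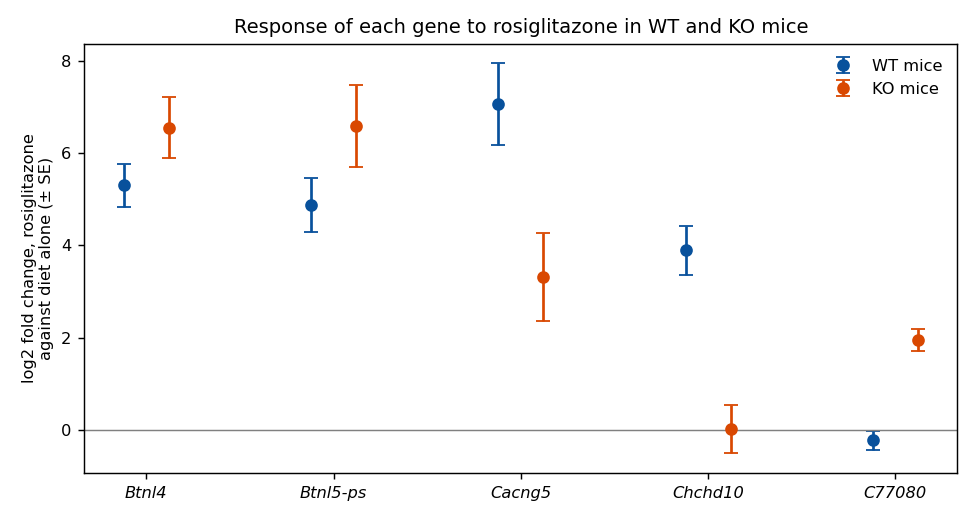
Log2 fold change of rosiglitazone against diet alone in WT (blue) and KO (orange) mice for each gene, with bars for the SE of the edgeR fit. Chchd10 is at 3.89 in WT and 0.01 in KO, and C77080 at -0.23 in WT and 1.95 in KO, the reverse order.

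C77080 encodes a protein related to the NHS family, whose members bind the WAVE complex of actin regulators and act at cell junctions and the cell edge. The gene lies on the minus strand at chr4:129219578-129261404, with several annotated starts. The 250 bases before the start of C77080-201, the transcript with the most reads in KO rosi, are shown because they are dense in GGGCGG. They are from the same RefSeq table (GRCm38.p6), minus strand, 5′ to 3′, and capitals mark that motif on either strand.
C77080-201, chr4:129248444-129248693: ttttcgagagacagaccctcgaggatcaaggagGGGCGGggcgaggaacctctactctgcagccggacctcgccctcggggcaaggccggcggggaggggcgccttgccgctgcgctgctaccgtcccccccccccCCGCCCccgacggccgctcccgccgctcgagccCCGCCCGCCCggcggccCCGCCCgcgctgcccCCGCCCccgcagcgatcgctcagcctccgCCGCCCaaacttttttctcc

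This window was 76.4% G or C and held 7 matches to GGGCGG, some of which overlap, and none to the other motifs searched.

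C77080 had 10.4, 9.63 and 14.3 CPM in WT diet and 10.2, 9.11 and 9.89 CPM in WT rosi, groups that overlapped. It had 21.6 and 14.3 CPM in KO diet. In KO rosi it had 66.9, 71.8 and 68.5 CPM, from 1073, 953 and 1101 reads. The KO rosi libraries stood above all others and differed from each other by less than 5 CPM.

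The drug difference of C77080 was -0.23 ± 0.20 (log2, SE) in WT and 1.95 ± 0.23 in KO. With both on the drug C77080 was higher in KO by 2.83 ± 0.21 (edgeR adjusted p = 0.000273), a call that held without each library in turn (adjusted p from 9.50e-05 to 0.00269). On the diet alone it differed by 0.65 ± 0.21 (adjusted p = 0.314). The difference between responses was 2.18 ± 0.30 (edgeR adjusted p = 0.042), and since the KO response helped choose the gene this is not an independent test. That call was lost in 8 of the 11 fits that left out a library, with adjusted p up to 0.178.

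On the TPM scale the KO gap of C77080 was smaller. C77080 had 7.83 and 3.90 TPM in KO diet and 6.97, 10.6 and 13.4 TPM in KO rosi, so the groups overlapped in TPM though not in CPM. On log2(TPM + 1) the drug difference in KO was 0.74, where the median of all tested genes was -0.60, and the difference between responses was 1.10 and not called. By transcript, C77080-201 carried 1906 reads in KO rosi and 482 in KO diet, a ratio of 3.95 (95% counting interval 3.57 to 4.37). C77080-202 carried 837 reads in KO rosi, and in KO diet 0 in replicate 1 and 162.9 in replicate 2, so no ratio is given. Only 6.21% and 3.34% of the 31-base words of C77080-201 and C77080-202 were their own, which limits how well reads can be divided between them. The share of the 2 transcripts varied between KO rosi libraries, with C77080-202 at 12.6%, 15.7% and 45.5% of the gene's TPM. No 31-base word of C77080 occurred in another gene.

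Macrophage markers moved with C77080. Of 20 macrophage markers, 13 were higher in KO rosi than in WT rosi and none lower (edgeR adjusted p below 0.05), where 15.0% of all tested genes were called. The list also holds Lpl, an abundant adipocyte transcript. Without Lpl, a choice made after its values were seen, the summed level of the other 19 was 1171 to 1637 CPM in WT diet, 826 to 1020 in WT rosi, 4678 and 1587 in KO diet and 4079 to 5044 in KO rosi. No marker in the list was at 0 in a library, and Adgre1, which marks mouse macrophages, was at 225 and 46.8 CPM in KO diet and at 235 to 329 CPM in KO rosi. With that sum as a covariate, the KO rosi difference of C77080 was 1.92 (edgeR adjusted p = 0.0392) and the difference between responses was 1.64 (adjusted p = 0.056). The sum did not overlap between KO rosi and WT rosi, so this fit cannot separate it well from genotype. KO diet replicate 1 had 4678 CPM of these markers and 21.6 CPM of C77080. The KO rosi libraries had a like sum of markers and 66.9 to 71.8 CPM of C77080. Single markers were not matched in this way. Trem2 was at 42.6 CPM in KO diet replicate 1 and at 98.3 to 142 in KO rosi, and Cd68 at 53 against 55.7 to 105. The part of macrophages in the C77080 differences was not tested.

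**Figure D3:**
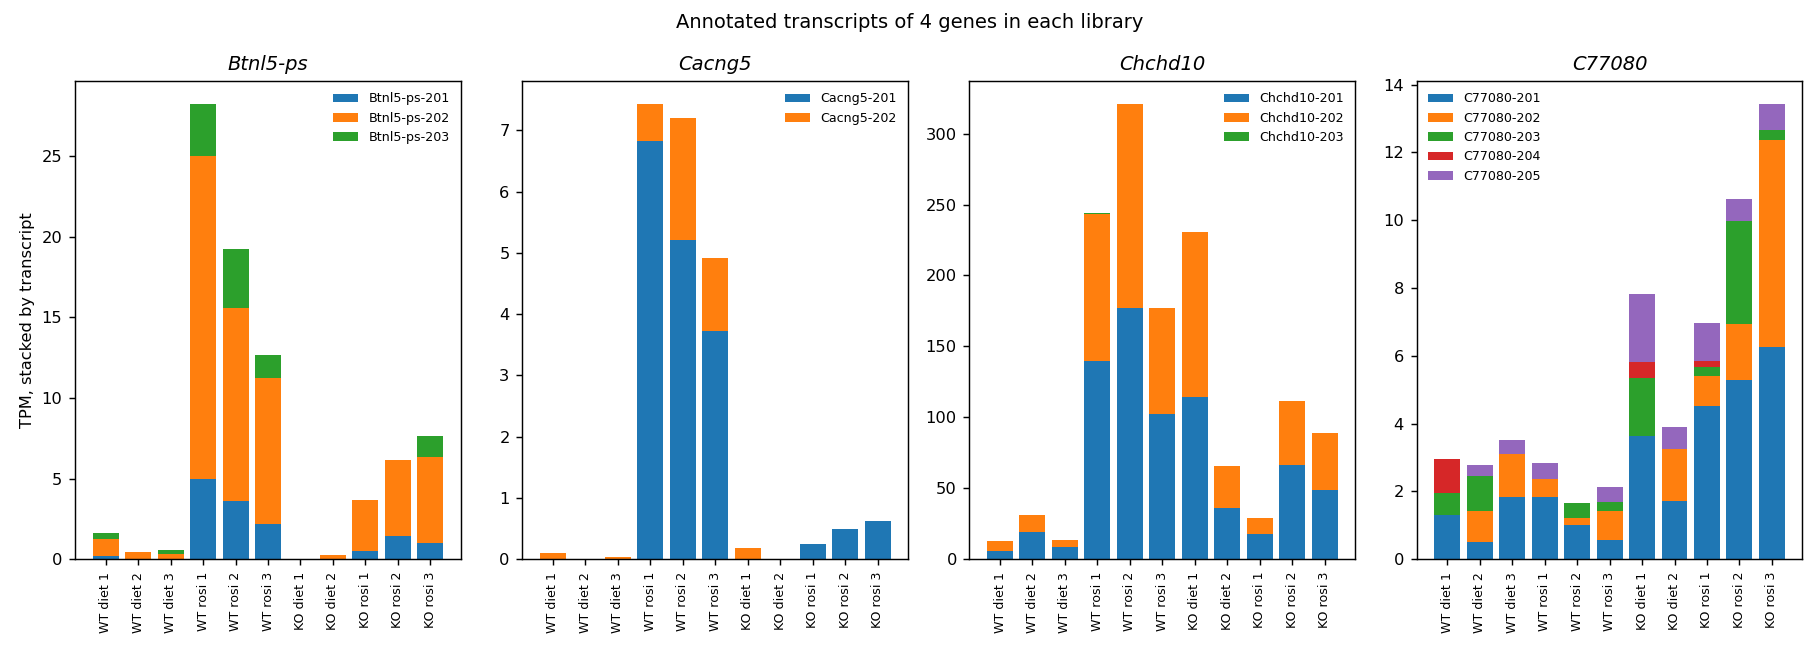
Deposited TPM in each library, stacked by annotated transcript, for 4 of the genes (Btnl4 has 1 transcript in the files). Cacng5-201 makes up most of the Cacng5 bars in WT rosi and all of them in KO rosi, Chchd10 is carried by Chchd10-201 and Chchd10-202, and the C77080 bars of KO diet replicate 1 and KO rosi replicate 1 are of like height, at 7.83 and 6.97 TPM.

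With both genotypes on the drug, 2 of the 5 genes were called, Cacng5 lower and C77080 higher in KO, where 15.0% of all tested genes were called. DESeq2 called 4 of the 5 and 5706 genes in all. All 5 had an unadjusted edgeR p below 0.05, as did 8444 of the 26960 tested genes. On the diet alone edgeR called 0 of the 5 and 0.137% of all tested genes. Of the 5, 4 had an unadjusted edgeR p below 0.05, against 2829 of all tested genes. DESeq2 called 1 of the 5 there and 713 genes in all. The order of the groups differed between the genes. From highest to lowest, Btnl4 and Btnl5-ps stood as WT rosi, KO rosi, WT diet and KO diet, without overlap between neighbours in that order. Cacng5 stood as WT rosi and KO rosi, with the 2 diet groups overlapping at the bottom. Chchd10 stood as WT rosi, then both KO groups overlapping, then WT diet. C77080 stood as KO rosi, then the remaining groups within 9.11 to 21.6 CPM. Across the 11 libraries, log2 CPM of Btnl4 correlated with Btnl5-ps at Pearson r = 0.991, with Cacng5 at 0.881, with Chchd10 at 0.579 and with C77080 at 0.219. These points share their groups and are no independent evidence of a relation.

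For the drug in WT 2.14% of all tested genes were called. In the Btnl and butyrophilin family, 2 of the 6 other tested members rose with the drug in WT, 4 were not called and none fell. The median log2 fold change of these 6 was 0.68, against -0.05 for all tested genes. Btnl6 had 0.0434, 0.0491 and 0.0521 CPM in WT diet, 1 read each, and 5.83, 4.23 and 2.60 CPM in WT rosi. It passed the read filter through the treated libraries, so it could be tested only because it was high there. The WT difference was 6.30 ± 0.60 (edgeR adjusted p = 0.00453), which as reads is a ratio of 93.5 (95% counting interval 31.7 to 456). In KO its 45 reads with the drug and 2 without gave a ratio of 22.5 (5.87 to 191) and a difference of 4.33 ± 0.73 that was not called (adjusted p = 0.109). Btnl6 was lower in KO rosi than in WT rosi by -2.09 ± 0.44 (edgeR adjusted p = 0.0132), a call lost without any 1 of 4 libraries, WT rosi replicates 1 and 2 and KO rosi replicates 1 and 2 (adjusted p up to 0.0602).

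Btnl9, at 122 ± 35.7 CPM in WT diet (SD, n = 3), rose in WT by 1.49 ± 0.33 (edgeR adjusted p = 0.0494) and was lower in KO rosi than in WT rosi by -1.12 ± 0.32 (adjusted p = 0.0434). Both Btnl9 calls stood near the threshold, and each was lost in 8 of the 11 fits that left out a library, with adjusted p up to 0.201 and 0.151. The members not called were Btnl2, at -0.56 ± 0.30 for the drug in WT, Btnl7-ps at 1.21 ± 1.20, Btnl10 at 0.15 ± 0.26 and Btn1a1 at -0.17 ± 0.56. Btnl1 and Btn2a2 had too few reads to be tested. In KO, 0 of the 6 other members were called for the drug, with 2 at an unadjusted p below 0.05 and 1 called by DESeq2. The differences over 4 on the log2 scale in WT were those of Btnl4, Btnl5-ps and Btnl6, which lie in a row on chromosome 17.

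In the calcium channel gamma family, 1 of the 7 other members rose with the drug in WT and 6 were not called, with a median of 0.60. That comparison called 2.14% of all tested genes. Cacng4, an auxiliary AMPA receptor subunit encoded on the same chromosome, had 0.521, 1.57 and 0.782 CPM in WT diet and 3.59, 3.58 and 2.41 CPM in WT rosi. It rose by 1.74 ± 0.38 (edgeR adjusted p = 0.0476), a call lost in 8 of the 11 fits that left out a library (adjusted p up to 0.186). Cacng7 did not pass for the drug in WT (0.48 ± 0.40, adjusted p = 0.584) but was lower in KO rosi than in WT rosi by -2.71 ± 0.44 (edgeR adjusted p = 0.005). Cacng7 had 7.89, 9.80 and 9.26 CPM in WT rosi and 1.31, 1.88 and 0.933 CPM in KO rosi.

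Cacng1, the gamma subunit of the skeletal muscle calcium channel, and Cacng6 varied widely in KO rosi, at 3.59 ± 6.22 and 3.26 ± 5.27 CPM (SD, n = 3). They also varied in WT diet, at 1.67 ± 2.59 and 1.75 ± 2.48 CPM, and in WT rosi, at 3.84 ± 3.59 and 2.69 ± 2.3 CPM. Each of these groups held libraries rich and poor in muscle markers. Their drug differences in KO were 5.23 ± 3.09 and 5.47 ± 2.58, neither called (edgeR adjusted p = 0.719 and 0.628). The group means of Cacng2, Cacng3 and Cacng8 lay between 0.393 and 1.95 CPM. Of 7 tested AMPA receptor subunits and partners outside the family, edgeR called 0 for the drug in WT, with 4 at an unadjusted p below 0.05 and 1 called by DESeq2. In KO rosi against WT rosi, where 15.0% of all tested genes were called, 3 of the 7 were higher and none lower. They were the auxiliary protein Shisa9 (4.77 ± 0.72, edgeR adjusted p = 0.00355), the scaffold Dlg4 (1.02 ± 0.20, adjusted p = 0.0105) and the subunit Gria3 (0.78 ± 0.18, adjusted p = 0.0203). Of 18 pore-forming and auxiliary subunits of voltage-gated calcium channels, none was called for the drug in WT by edgeR (4 at an unadjusted p below 0.05, 2 by DESeq2). Between the genotypes on the drug, with the same 15.0% of all tested genes called, 3 were higher in KO and 1 was lower. The pore-forming subunits Cacna1b (1.84 ± 0.24, edgeR adjusted p = 0.00189), Cacna1d (1.27 ± 0.29, adjusted p = 0.0194) and Cacna1h (1.44 ± 0.37, adjusted p = 0.0295) were higher, and Cacna1f (-2.85 ± 0.57, adjusted p = 0.0107) was lower. The Cacna1b call held without each library in turn, and that of Cacna1f was lost without KO rosi replicate 3 (adjusted p = 0.0533).

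Chchd10 has relatives that share its twin CX9C fold, in which paired cysteines are oxidised during import into the intermembrane space. Of the 22 other tested genes of this kind, 6 rose with the drug in WT, 16 were not called and none fell, and 21 had a positive difference. Their median was 0.89, against -0.05 for all tested genes and 3.89 for Chchd10, which was chosen on this response. Of all tested genes 2.14% were called for the drug in WT. The 6 were Cox19, a copper chaperone for cytochrome oxidase, at 1.86 ± 0.34 (edgeR adjusted p = 0.0303), the respiratory chain subunits Cox6b1 (1.74 ± 0.38), Ndufb10 (1.46 ± 0.25), Ndufa8 (1.36 ± 0.29) and Ndufb7 (0.96 ± 0.18), and Chchd3 (1.36 ± 0.29), a subunit of the MICOS complex at crista junctions. In KO edgeR called 0 of the 22, with 2 at an unadjusted p below 0.05 and 0 called by DESeq2. Chchd2, the closest relative of Chchd10, had 154 ± 71.5 CPM in WT diet, 478 ± 92.5 in WT rosi (SD, n = 3 each), 97.1 ± 52.3 in KO diet (n = 2) and 133 ± 19.0 in KO rosi (n = 3).

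Between KO rosi and WT rosi, 8 of the 22 were lower in KO and none was higher, with a median of -0.63. In that comparison 15.0% of all tested genes were called. Cox19 was lower by -2.31 ± 0.35 (edgeR adjusted p = 0.00354), Chchd2 by -1.84 ± 0.38 (adjusted p = 0.0122) and Chchd6, another MICOS subunit, by -1.68 ± 0.37 (adjusted p = 0.0156). In KO diet 0 of the 22 were called against WT diet (2 at an unadjusted p below 0.05, 1 by DESeq2) and their median was 0.01, whereas Chchd10 stood at 2.70 ± 0.53. Among 13 tested genes of the MICOS complex and its partners, 4 rose in WT and none fell, with Samm50, the outer membrane assembly protein, at 1.80 ± 0.26 (edgeR adjusted p = 0.0169) and Immt, the core MICOS subunit, at 1.18 ± 0.25 (adjusted p = 0.044). In KO rosi 7 of the 13 were lower than in WT rosi. Of 10 genes of import into the intermembrane space, 1 rose in WT, the chaperone Timm13 (1.09 ± 0.24, edgeR adjusted p = 0.0471).

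The counts for these mitochondrial lists moved with single libraries. The 7 twin CX9C genes called in WT with Chchd10 included became 0 to 12 when a library was left out, and the 4 MICOS genes became 0 to 10. Chchd10 was chosen on this response, so its own call is no test, and 6 were called without it. With the skeletal muscle covariate they became 1 and 1, on log2(TPM + 1) 1 and 0, and with the RLE scaling of DESeq2 4 and 2. The muscle markers ranged from 193 to 43300 CPM between libraries. The single WT calls of Cox19, Chchd3 and Immt were each lost in 8 of the 11 fits that left out a library (adjusted p up to 0.138, 0.195 and 0.187), that of Ndufb10 in 5 (up to 0.13) and that of Samm50 in 4 (up to 0.091). In KO rosi against WT rosi the call of Cox19 was lost in none of the 11, that of Chchd2 in 2 (without KO rosi replicate 1 or 3) and that of Chchd6 in 4 (adjusted p up to 0.0675). With the mature adipocyte markers as a covariate, 0 twin CX9C genes and 0 MICOS genes were lower in KO rosi. The sum of those markers did not overlap between KO rosi and WT rosi, so this fit cannot separate it well from genotype.

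Of the 3 other tested genes of the NHS family, edgeR called 0 for the drug in either genotype (in KO 1 at an unadjusted p below 0.05, Nhsl1 at -0.93 ± 0.29, and 0 by DESeq2 in both). Nhsl2 was lower in KO rosi than in WT rosi, by -1.36 ± 0.32 (edgeR adjusted p = 0.0209), while C77080 was higher. Nhs differed by 0.08 ± 0.48 and Nhsl1 by 0.21 ± 0.26 in that comparison. The Nhsl2 call was lost without any 1 of 5 libraries, WT rosi replicates 1 and 2 and KO rosi replicates 1, 2 and 3 (adjusted p up to 0.0839). Of 11 genes of the WAVE complex, 2 were higher in KO rosi and 2 lower, where 15.0% of all tested genes were called. Nckap1l, the form used by blood cells, was higher by 2.44 ± 0.32 (edgeR adjusted p = 0.00193) and Abi3 by 0.80 ± 0.16 (adjusted p = 0.00968), while the widely expressed Nckap1 was lower by -1.70 ± 0.42 (adjusted p = 0.0245) and Wasf1 by -1.20 ± 0.35 (adjusted p = 0.0434). The calls of Nckap1 and Wasf1 were lost in 6 and 7 of the 11 fits that left out a library (adjusted p up to 0.0914 and 0.125), those of Nckap1l and Abi3 in none.

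**Figure D4:**
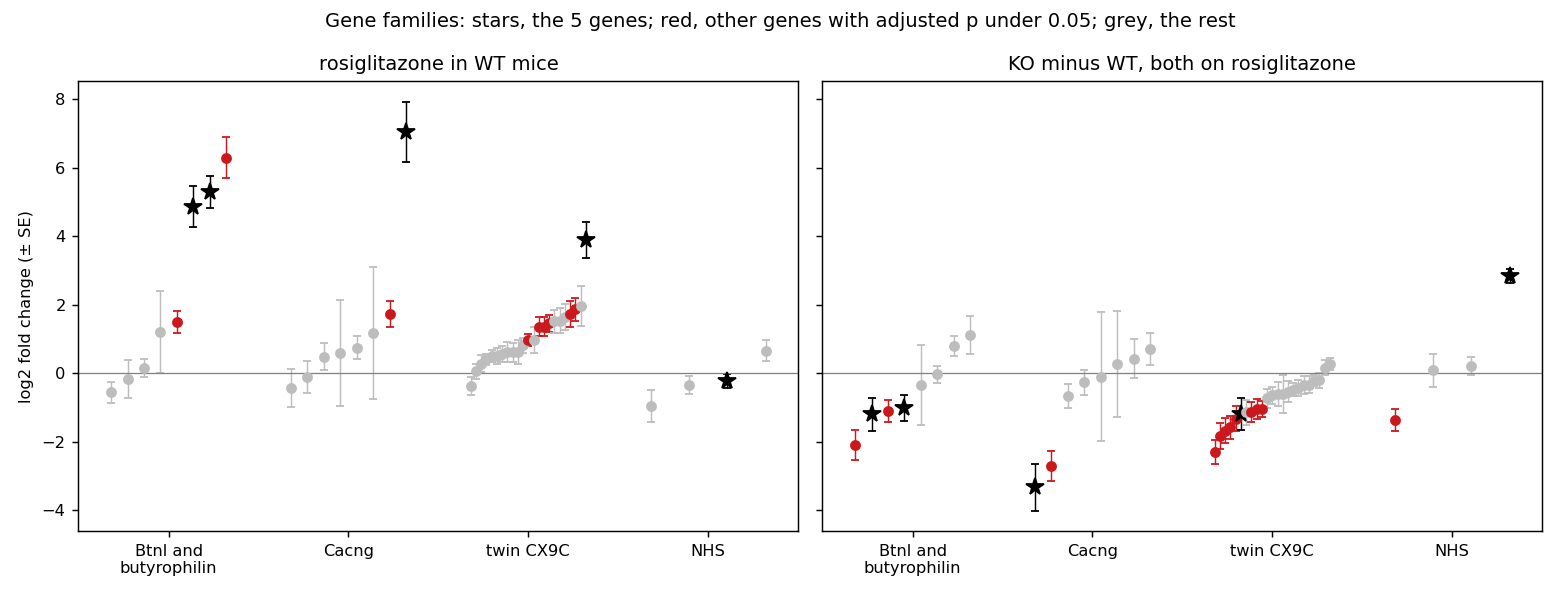
Log2 fold change with SE of every tested gene in 4 families, for rosiglitazone in WT (left) and for KO against WT with both on the drug (right), sorted within each family. Stars are the 5 genes, red points other genes with an edgeR adjusted p below 0.05 and grey points the rest, with Btnl6 at 6.30 the one red point on a level with the stars on the left.

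Known PPAR gamma targets give a scale for the drug responses of the 5 genes. Of 30 such genes tested, 28 had a positive difference in WT and 2 were called, the lipid droplet protein Plin5 (2.29 ± 0.39, edgeR adjusted p = 0.0257) and the fatty acid transporter Slc27a1 (1.63 ± 0.32, adjusted p = 0.0361). That comparison called 2.14% of all tested genes. The Plin5 call was lost in 6 of the 11 fits that left out a library (adjusted p up to 0.12), on log2(TPM + 1), with only the groups compared and with the adipocyte covariate. The median of the 30 in WT was 1.24, against 3.89 to 7.06 for Chchd10, Btnl5-ps, Btnl4 and Cacng5 and -0.23 for C77080. The genes were chosen for large drug responses, so the higher values of these 4 follow from the choice. In KO the median was 0.11, with 0 called by edgeR, 2 at an unadjusted p below 0.05 and 2 by DESeq2. Of all tested genes 15.0% were called between KO rosi and WT rosi. There 20 of the 30 were lower and none higher, with a median of -2.06, among them Retn (-3.59 ± 0.48, edgeR adjusted p = 0.00209) and Pck1 (-3.42 ± 0.44, adjusted p = 0.00176). Btnl4 and Btnl5-ps, at -1.02 and -1.21, were less reduced than that median, and Cacng5, at -3.34, was more reduced. These 20 became 2 with the mature adipocyte markers as a covariate. That marker list shares genes with the 30 targets, Retn and Pck1 among them. Its sum was 50230 to 57331 CPM in WT rosi and 8211 to 9951 in KO rosi. The fit therefore cannot separate adipocyte content well from genotype, and the cause was not tested.

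Genes next to the 5 genes were compared within 100 kb, to show whether the responses were shared along the chromosome. Around Btnl4 and Btnl5-ps the nearest gene on the low side, BC051142, differed by -0.73 ± 0.49 for the drug in WT (edgeR adjusted p = 0.486), and Btnl7-ps, beyond Btnl6, by 1.21 ± 1.20 (adjusted p = 0.645). Within 100 kb of Btnl4, Btnl5-ps and Btnl6 were the 2 of 6 tested neighbours past the threshold for the drug in WT. That comparison called 2.14% of all tested genes. Btnl5-ps was a gene the responses chose, and Btnl6 passed the read filter through the treated libraries. The count is therefore no test of a shared response. Farther on, Notch4 was lower in KO rosi than in WT rosi by -0.92 ± 0.22 (edgeR adjusted p = 0.0208) and Gpsm3 was higher by 1.98 ± 0.55 (adjusted p = 0.0377). Gpsm3, Notch4 and Gm5134, below, lost their calls in 6, 5 and 7 of the 11 fits that left out a library.

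Cacng5 had 2 tested neighbours, Cacng4 at a gap of 80048 bases, which rose as given above, and Prkca at 18332 bases, which differed by -0.23 ± 0.18 (edgeR adjusted p = 0.539). Of 9 tested neighbours of Chchd10, none was called for the drug in WT by edgeR (2 at an unadjusted p below 0.05, 1 by DESeq2). The overlapping Gm867 differed by 1.16 ± 0.53 (adjusted p = 0.296) and Smarcb1, the nearest separate gene on the low side, by 0.08 ± 0.14 (adjusted p = 0.809). Between KO rosi and WT rosi, where 15.0% of all tested genes were called, 2 of the 9 were called. Gstt2, a glutathione transferase, was lower by -1.17 ± 0.18 (edgeR adjusted p = 0.00375) and Gm5134 higher by 3.99 ± 1.12 (adjusted p = 0.0396). Gm5134 was near the floor, at 0.0541 CPM in WT rosi and 0.775 in KO rosi, and differed by 0.27 on log2(TPM + 1). Of 10 tested neighbours of C77080, edgeR called 0 in any of the 5 comparisons. At an unadjusted p below 0.05 there were 2 for the drug in WT and 3 between KO rosi and WT rosi, and DESeq2 called 0. The overlapping Yars differed by -0.28 ± 0.14 between KO rosi and WT rosi (edgeR adjusted p = 0.202), and Gm12976, 561 bases away, by 0.30 ± 0.20 (adjusted p = 0.328).

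**Figure D5:**
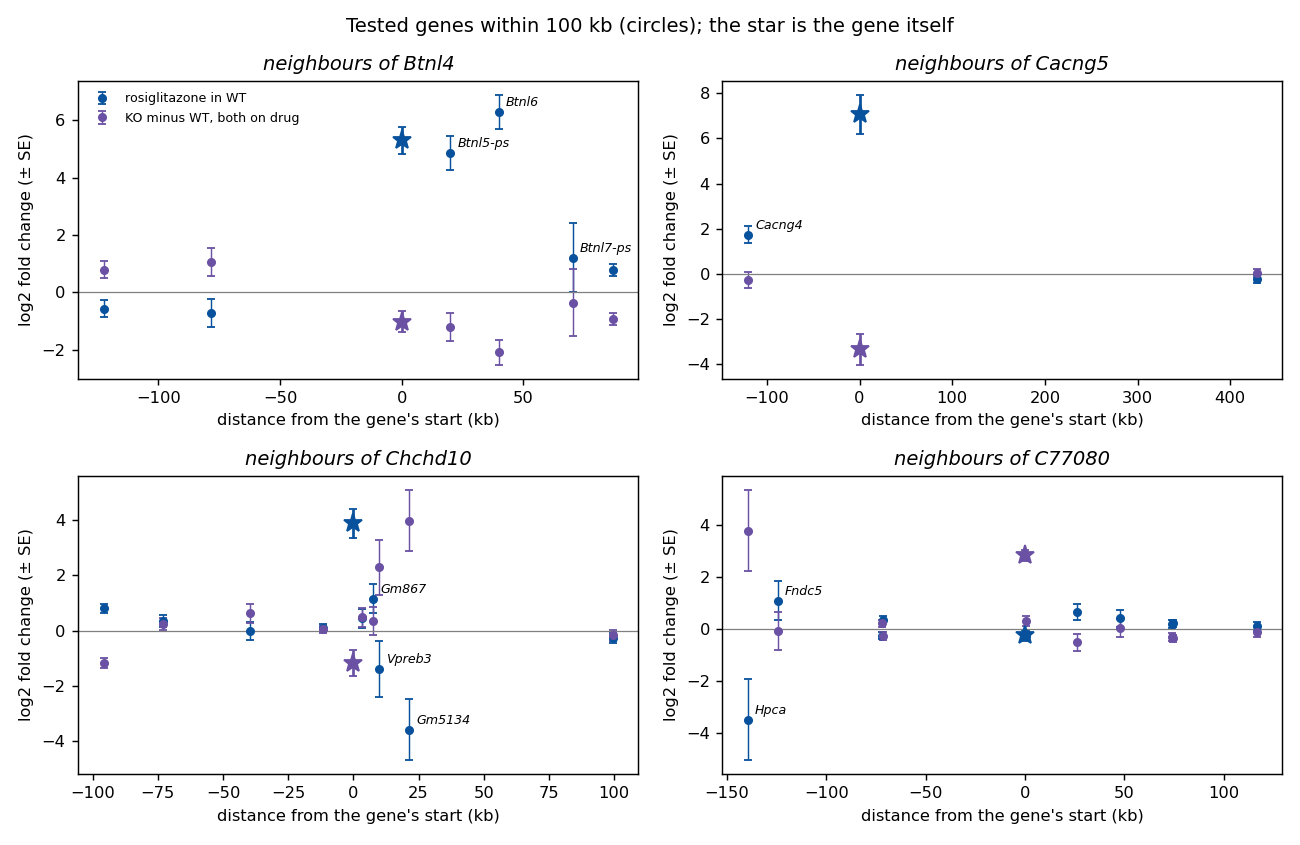
Log2 fold change with SE of tested genes whose bodies lie within 100 kb of Btnl4, Cacng5, Chchd10 and C77080, against the distance between starts in kb. Blue is rosiglitazone in WT and purple is KO against WT with both on the drug, with a star for the gene itself. Btnl6 and Btnl5-ps stand with Btnl4 at 6.30 and 4.87. Among neighbours of C77080, Hpca alone reaches its 2.83, at 3.78 ± 1.57 and not called (edgeR adjusted p = 0.131). Hpca was near the floor, at 0.0118 CPM in WT rosi and 0.249 in KO rosi.

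The genes whose levels across the 11 libraries were most like each of the 5 were taken by Pearson correlation of log2 CPM among 13932 candidates, as a description in which the libraries share groups, depth and tissue makeup. Beside Btnl5-ps, Btnl4 was most like Cilp (r = 0.962) and Sptlc3 (0.959). Sptlc3, a subunit of the enzyme that starts sphingolipid synthesis, was also near absent without the drug. It had 0.304, 0.0982 and 0.469 CPM in WT diet, 18.5, 46.1 and 35.3 in WT rosi, 0 in both KO diet libraries and 5.17, 5.80 and 2.80 in KO rosi. The remaining genes, Dhx38 and Usp48 for Btnl4 and Emc10 and Dhcr7 for Btnl5-ps, had the same order of groups over a narrow range; Dhx38 reached 31.8 CPM in WT rosi replicate 2 and was at 22.2 to 24.8 in WT diet.

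Cacng5 was most like Cyp4b1 (r = 0.985), a cytochrome P450, with group means of 57.9 CPM in WT diet, 380 in WT rosi, 73.7 in KO diet and 177 in KO rosi. Next came Ccdc124, Mrpl38, Tomm40 and Tmem136, at r = 0.966 to 0.971. Chchd10 was most like Cpt1b (0.961), the muscle-type enzyme of fatty acid entry into mitochondria, then Plin5 (0.955), Cox8b (0.949), Esrra (0.943) and Myo5b (0.94). Cpt1b is among the brown and beige markers above and showed the same order of group means, at 15.1 CPM in WT diet, 175 in WT rosi, 70.3 in KO diet and 98.8 in KO rosi. Plin5 is also on the list of PPAR gamma targets above, and Cox8b is a cytochrome oxidase subunit of brown fat and muscle.

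C77080 was most like Atp13a2 (r = 0.991), a lysosomal transporter of polyamines, Gpr137b (0.982), a lysosomal membrane protein, Nptx1 (0.979), Trem2 (0.971), a lipid receptor of macrophages and microglia, and Efr3b (0.97). Trem2 had 18.0, 9.18 and 17.3 CPM in WT diet, 10.3, 8.87 and 6.98 in WT rosi, 42.6 and 19.0 in KO diet and 142, 98.3 and 120 in KO rosi. Nptx1 had 0.204 CPM on average in WT rosi and 16.1 in KO rosi. All 5 genes most like C77080 had their highest group mean in KO rosi, while none of the genes most like the other 4 did. That follows from the correlations by which these genes were picked and is no separate result.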

How the data were processed

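RNA was extracted with Trizol and sequenced after Nextera XT library preparation, per the labels' protocols, in which no strand is named. The submitters' processing notes name Salmon and edgeR and the builds mm10 and GRCm38, with no version. The authors deposited, for each of 11 libraries, estimated counts (expected counts per transcript) and TPM. TPM values were deposited already corrected for length and scaled to a fixed total per library. Of 132288 listed transcripts, 131892 matched the GENCODE annotation of GRCm38 (129274 with their version), giving 52282 genes, and 396 unmatched ones (0.0985% to 0.144% of reads) were not used.

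Per-gene sums of the estimated counts were rounded and analysed in R 4.3.3 with edgeR 4.0.16 (TMM scaling, filterByExpr, robust quasi-likelihood fit, 4 groups over all 11 libraries). CPM use the same library sizes. Adjusted p-values are Benjamini-Hochberg over 26960 genes. log2 CPM for correlations used a prior count of 2, over genes whose mean log2 CPM reached 1. Alternatives were DESeq2 1.42.0, limma 3.58.1 on log2(TPM + 1), other scaling, filter and covariates, group labels from titles, and each library left out. Library pairs within a group differed by a chi-square per degree of freedom of 26.5 to 139, so none was a duplicate. On simulated counts with 200 changed genes of 26960, the fit recovered 90.2% of 16-fold and 53.7% of 4-fold changes for the drug in WT, 82.2% and 34.2% for the drug in KO, and 70.8% and 16.7% for the difference between responses. Of the simulated calls 3.3%, 0% and 10.4% were false in these 3 comparisons, the last above the nominal 5%. Between KO and WT, 3.45% were false on the diet alone and 5.81% with both on the drug. No simulation was repeated, so these shares are imprecise.

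The 5 genes and the gene lists were chosen with earlier results of these data known. Genes named in the text are the 5 genes, every symbol of the Btnl, Cacng and NHS families, up to 4 of each other list with the smallest p in a comparison, tested neighbours within 100 kb that were called or nearest, and the 5 most alike genes. The further twin CX9C genes, Chchd2 and the marker genes given by level were added after values were seen.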

Additional observations from a re-analysis of the deposited data

Results flagged for a closer look

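C77080 had an edgeR adjusted p of 0.042 for the difference between the KO and the WT response to rosiglitazone, which was 2.18 on the log2 scale (SE 0.30), with the drug difference at 1.95 in KO and -0.23 in WT. These responses are the values by which the gene was chosen, so the p is a description and no independent test. C77080 was higher in 3 of 3 KO rosi libraries than in every other library by CPM. The call was lost in 8 of the 11 fits that left out a library (adjusted p up to 0.178). It was also lost with the replicate block (2.13, adjusted p = 0.0836), with the muscle covariate (2.19, adjusted p = 0.096), with the macrophage covariate (1.64, adjusted p = 0.056) and on log2(TPM + 1) with limma (1.10, adjusted p = 0.3). On simulated counts 10.4% of the calls in this comparison were false, in a simulation that was not repeated.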

How the results depend on the processing

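Values are log2 differences unless called counts. With WT groups taken from the titles, the WT drug differences became -5.30 for Btnl4, -4.87 for Btnl5-ps, -7.06 for Cacng5, -3.89 for Chchd10 and 0.23 for C77080. For KO against WT on the diet they became -7.57 (Btnl4), -7.80 (Btnl5-ps), -6.65 (Cacng5) and 0.88 (C77080), and on the drug 4.28, 3.65 and 3.72 for the first 3 and 2.70 for Chchd10. The differences between responses became 11.85, 11.45 and 10.37 for Btnl4, Btnl5-ps and Cacng5, with 4 of the 5 genes called in each of these 3 comparisons. For the drug in WT, Btnl6 became -6.30, Btnl9 -1.49, Cacng4 -1.74, Samm50 -1.80, Immt -1.18, Chchd3 -1.36, Cox19 -1.86, Ndufb10 -1.46 and Plin5 -2.29, and for KO against WT on the drug Btnl6 became 4.20 and Btnl9 0.36.

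On log2(TPM + 1), which shifted the median of all genes to -0.13 (drug in WT), -0.60 (drug in KO), 0.09 (diet), -0.30 (drug, KO against WT) and -0.46 (responses), the drug differences in WT and KO were 3.15 and 2.10 for Btnl4, 3.49 and 2.55 for Btnl5-ps and 2.83 and 0.42 for Cacng5, and C77080 was 0.74 in KO. KO against WT on the drug was -1.34 for Btnl4 and -1.60 for Btnl5-ps, with 4 genes called, and the responses differed by -2.41 for Cacng5 and 1.10 for C77080. DESeq2 gave -1.03 for Btnl4 and -1.22 for Btnl5-ps on the drug, 2.70 for Chchd10 on the diet, and -3.81 for Cacng5 and -3.89 for Chchd10 between responses, with 1, 4 and 3 genes called on the diet, on the drug and between responses. Fitting only the groups compared gave -1.01 for Btnl4 and -1.20 for Btnl5-ps on the drug, with 4 called.

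With the adipocyte covariate, Cacng5 was 5.80 for the drug in WT, 4.30 on the diet and 2.27 on the drug, and Chchd10 3.36 for the drug in WT and 3.34 on the diet, with 2 genes called on the diet and 1 on the drug. On the drug Btnl9 became 0.37, Nhsl2 0.28, Gpsm3 -0.57, Nckap1 0.49, Wasf1 0.21, Chchd2 0.01 and Chchd6 0.24. With the muscle covariate the C77080 responses differed by 2.19, with 0 of the 5 genes called. With the macrophage covariate, chosen after seeing the data, the drug difference was 4.68 in WT and 7.38 in KO for Btnl4, 7.27 in KO for Btnl5-ps, 8.93 in WT for Cacng5 and 0.05 in WT for C77080, whose responses differed by 1.64, with 0 called, and Btnl6 was 1.54 on the drug. With the replicate block C77080 responses differed by 2.13 and 0 of the 5 genes were called. The replicate numbers did not pair the samples, with correlations of same-numbered deviations from -0.42 to 0.61. The cause of these changes was not tested.

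When each of the 11 libraries was left out in turn, the drug difference ranged from 5.02 to 5.72 in WT and 5.71 to 10.47 in KO for Btnl4, 4.50 to 6.13 and 5.79 to 9.60 for Btnl5-ps, 6.51 to 8.71 and 2.24 to 8.62 for Cacng5, 3.61 to 4.31 and -0.58 to 1.00 for Chchd10, and -0.34 to -0.04 and 1.68 to 2.27 for C77080. KO against WT on the drug ranged from -1.18 to -0.85 for Btnl4 (called without either KO diet library), -1.38 to -1.07 for Btnl5-ps (called without WT diet replicate 1), -3.43 to -3.19 for Cacng5, -1.54 to -0.90 for Chchd10 and 2.78 to 2.87 for C77080. On the diet it ranged from -6.20 to -1.44, -5.95 to -1.67, -4.90 to 2.05, 1.70 to 3.28 and 0.32 to 0.91 in the same order of genes. The responses differed by 0.41 to 5.17, 0.45 to 4.74, -5.39 to 1.56, -4.47 to -2.89 and 1.91 to 2.50. Of the 5 genes 0 to 1 were called on the diet, 1 to 3 on the drug and 0 to 2 between responses. Low diet counts of Btnl4, Btnl5-ps and Cacng5 limit the size of their drug differences. Over all tested genes, the 578, 4, 37, 4037 and 28 calls (drug in WT, drug in KO, diet, drug between genotypes, responses) became 1879, 338, 713, 5706 and 482 with DESeq2, and 48, 254, 83, 4078 and 5 on log2(TPM + 1). With only the groups compared they became 313, 0, 0 and 8462 for the first 4, with no low-count filter 541, 20, 75, 3396 and 47, and with the replicate block 430, 1, 1, 3444 and 1. With the adipocyte, muscle and macrophage covariates the calls for the drug in WT became 1830, 144 and 1218, for the drug in KO 1011, 3 and 271, on the diet 3275, 18 and 44, on the drug between genotypes 1916, 2856 and 1568, and between responses 683, 1 and 273. With the titles the last 3 became 2886, 624 and 154. Leaving out a library gave 18 to 2779, 1 to 145, 2 to 250, 1498 to 5919 and 1 to 348.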
